A study of Mus musculus with 6 samples.

Results

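A set of 8 genes of the extracellular matrix, Col1a1, Col1a2, Col3a1, Col4a1, Col4a2, Fn1, Sparc and Bgn, was followed through 6 libraries of T cells sorted from mouse melanomas. They were chosen by name, as the rows of the count table whose Ensembl identifier carries one of these symbols, and all 8 were found among the 43629 genes of the table. The cells came from tumours of B16-OVA, a mouse melanoma line that expresses ovalbumin, grown under the skin of C57BL/6 mice and taken on day 14. Tumours were pooled. The labels describe the sort as TCRB+CD3 cells, and the series' own text adds CD8+ and TCR+. The sorted cells were then divided by the binding of L-Pha, a bean lectin that recognises branched N-glycans, into L-Pha low (3 libraries) and L-Pha high (3 libraries). All 6 libraries share the strain, the tumour line, the day and the sort, and there was no library of unsorted tumour or of cultured B16-OVA cells among the samples analysed here. Whether each library had its own pool of mice is not stated. The p-values below therefore reflect the scatter among 3 libraries per group, which may be partly or wholly technical.

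The extracellular matrix is the protein scaffold around cells. Fibrillar collagens form its tensile fibres, network-forming collagen IV forms the sheet of the basement membrane under epithelium and around vessels and muscle, and adhesive glycoproteins and proteoglycans link the collagens to each other and to integrins on cells. In a tumour these genes are known mainly from fibroblasts, pericytes, endothelium, macrophages and the tumour cells themselves. T cells are not a textbook source of fibrillar collagen, so these transcripts are described here as stromal or tumour RNA in a T cell sort. Which cells they came from was not tested.

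Upstream sequence is shown for Col3a1 and Bgn. They were the only members whose 5′ flank, in the RefSeq promoter table (build GRCm38.p6), held no annotated exon. The table had an entry for 6 of the 8 genes, Col1a1 and Fn1 being the others. Each line below gives the 150 bases just before the start site, 5′ to 3′ on the gene's own strand, which is the plus strand for both. Capitals mark TATAAA in Col3a1 and CCGCCC, the reverse complement of GGGCGG, in Bgn.
Col3a1, chr1:45311388-45311537: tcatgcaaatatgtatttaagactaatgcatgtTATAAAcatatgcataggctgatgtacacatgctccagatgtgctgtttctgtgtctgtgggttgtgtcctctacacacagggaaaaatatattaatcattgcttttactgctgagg
Bgn, chrX:73483451-73483600: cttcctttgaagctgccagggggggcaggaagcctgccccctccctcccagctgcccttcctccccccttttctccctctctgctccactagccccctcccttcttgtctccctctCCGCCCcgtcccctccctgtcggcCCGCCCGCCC
Over the whole 300-base window, from 250 bases before to 50 after the start site, GC content was 37.7% for Col3a1 and 63.7% for Bgn. Col3a1 had 1 TATAAA, beginning 117 bases before the start site, and Bgn had 3 matches of GGGCGG on the opposite strand, beginning 34, 10 and 6 bases before it, of which the last 2 overlap. Searched on both strands, TATAAA was in 1 of the 6 members' windows against 13.6% of all 32851 windows in the table, GGGCGG in 4 of 6 against 35.7%, and CCAAT in 3 of 6 against 37.4%. These are matches of letters and not measured binding sites.

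Col4a1 and Col4a2 are neighbours that are transcribed away from each other, and their annotated first exons share 22 bases. The shared stretch is shown because a read there would lie in both genes, on opposite strands.
Col4a1 and Col4a2, chr8:11312805-11312826, plus strand: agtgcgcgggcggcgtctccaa
The Col4a2 start site is at 11312805 on the plus strand and that of Col4a1 at 11312826 on the minus strand (GRCm38.p6). Reads were counted on the sense strand, per the file header, and the libraries were primed at the poly(A) tail, at the far end of both genes.

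The 6 libraries held 2610729 to 3521117 counts each. From 9.59% to 24.96% of the counts fell on 1 predicted gene, Gm42418, which overlaps ribosomal RNA. Levels are given as CPM, each library's counts scaled to a common total over the tested genes with TMM factors. Markers of the labelled cell type were present, with summed CPM of 15 T cell genes from 295 to 888 and Cd8a from 57.1 to 217. Markers of melanoma were far more abundant: 13 melanoma genes summed to 9907 to 16469 CPM, or 0.913% to 1.75% of all counts, most of it Dct, an enzyme of pigment synthesis. RNA of pigment-cell genes was therefore in every library of the sort.

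The 8 matrix genes together took 0.0222%, 0.0204% and 0.0341% of all counts in L-Pha low libraries 1, 2 and 3, from 697, 675 and 891 counts. In L-Pha high libraries 1, 2 and 3 the shares were 0.0344%, 0.0187% and 0.0385%, from 1211, 642 and 1085 counts. Exact binomial 95% intervals, which cover counting error only, ran from 0.0206% to 0.0239% in L-Pha low 1 and from 0.0362% to 0.0408% in L-Pha high 3. The 2 groups overlapped, and the lowest and the highest share were both found in L-Pha high. In a bulk sample, a lower level cannot distinguish fewer cells of a type from less RNA per cell.

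Of the 5201 counts of the 8 genes in all libraries, 2979 came from Sparc. Divided by exon length, Sparc stood at 47.6 CPM per kb, ahead of Col1a1 (3.43), Col4a1 (2.82), Fn1 (2.65), Bgn (1.91), Col3a1 (1.44), Col1a2 (1.16) and Col4a2 (0.819 CPM per kb). Sparc was above Col1a1 in 6 of 6 libraries on this scale. None of the other neighbours in this order kept its place in all 6 libraries: the upper gene of each pair was ahead in 4 or 5 of them. Since 3′ sequencing gives about 1 read position per transcript whatever its length, division by length favours short genes such as Sparc here.

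The fibrillar collagens come first. Col1a1 (ENSMUSG00000001506, chr11:94936224-94953042 on GRCm38) encodes the more abundant chain of collagen I, the main protein of tendon, skin and scar. It stood at 30.7, 11.5 and 22.7 CPM in L-Pha low 1, 2 and 3 and at 34.4, 6.93 and 28.6 CPM in L-Pha high 1, 2 and 3. The libraries numbered 2 were the lowest of both groups and the groups overlapped, with means of 21.6 ± 9.69 and 23.3 ± 14.47 CPM (SD, n = 3 each). The log2 fold change, L-Pha high minus L-Pha low, was 0.11 (SE 0.479, 95% interval -0.92 to 1.13, edgeR quasi-likelihood test, adjusted p = 1.00).

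Col1a2 (ENSMUSG00000029661, chr6:4504814-4541543) encodes the partner chain of collagen I. Its levels were 15.2, 7.99 and 15.7 CPM in L-Pha low and 22.1, 7.83 and 15.3 CPM in L-Pha high, in the order of library number. Library 2 was again the lowest of each group. The means were 13.0 ± 4.31 and 15.1 ± 7.14 CPM, and the log2 fold change was estimated at 0.22 (SE 0.404, 95% interval -0.64 to 1.09). Counts of Col1a1 over counts of Col1a2 came to 1.60 over all libraries and ran from 0.885 in L-Pha high 2 to 2.02 in L-Pha low 1.

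Col3a1 (ENSMUSG00000026043, chr1:45311538-45349706) encodes collagen III, which is laid down with collagen I in skin, vessel wall and early repair tissue. It was at 18.8, 10.8 and 14.9 CPM in L-Pha low and at 22.1, 5.12 and 13.0 CPM in L-Pha high. L-Pha high thus held both the highest and the lowest of the 6 values. Its means were 14.8 ± 4.00 and 13.4 ± 8.50 CPM and its log2 fold change was -0.14 (SE 0.442, 95% interval -1.08 to 0.81). The ratio of Col1a1 to Col3a1 counts was 1.59 overall and ran from 1.06 to 2.21.

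The basement membrane collagens Col4a1 (ENSMUSG00000031502, chr8:11198423-11312826) and Col4a2 (ENSMUSG00000031503, chr8:11312805-11449287) encode the chains of the most widespread collagen IV trimer and share the 22 bases printed above. Col4a1 was at 19.4, 10.1 and 22.4 CPM in L-Pha low and at 26.6, 10.2 and 26.7 CPM in L-Pha high. Library 2 was the lowest of each group, at nearly the same level in both. The means were 17.3 ± 6.42 and 21.2 ± 9.47 CPM, and the log2 difference between groups was 0.29 (SE 0.397, 95% interval -0.56 to 1.15).

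Col4a2 was the member with the fewest counts: 3, 16 and 26 for L-Pha low against 21, 9 and 24 for L-Pha high. As levels these were 0.971, 5.56 and 9.69 CPM against 5.59, 2.71 and 7.995 CPM. L-Pha low 1 lay below all the others, and the exact Poisson 95% interval of its 3 counts reached from 0.200 to 2.84 CPM. The means were 5.41 ± 4.36 and 5.43 ± 2.65 CPM, the log2 fold change was 0.02 and its 95% interval, -1.33 to 1.37, was the widest of the 8. There were 3.67 counts of Col4a1 for each count of Col4a2 over all libraries, from 1.81 in L-Pha low 2 to 20 in L-Pha low 1, where Col4a2 had those 3 counts. Col4a2 also overlaps 43 exon bases of the predicted gene Gm15419 on the other strand, which had 0 counts.

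**Figure D1:**
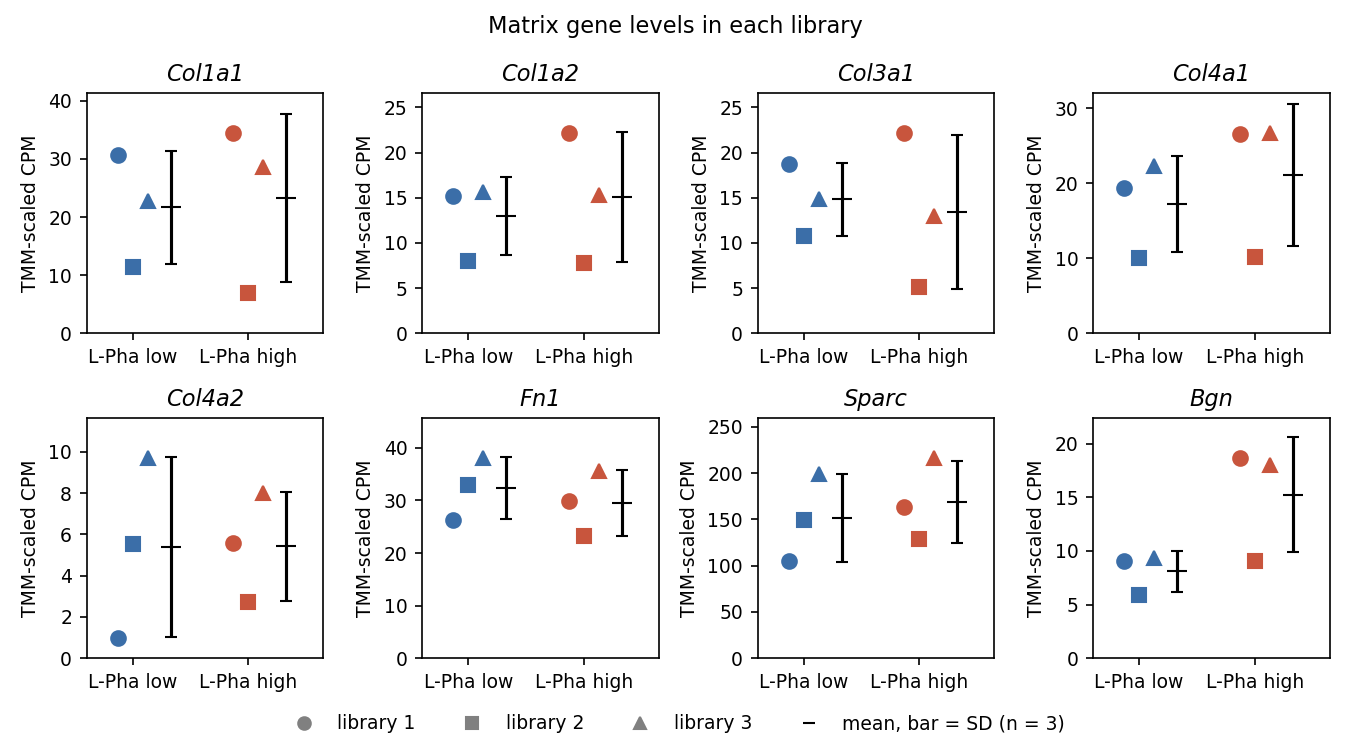
Level of each of the 8 matrix genes in every library, in TMM-scaled CPM on a linear axis that starts at 0, with L-Pha low in blue and L-Pha high in red. Marker shapes give the library number, and the black tick and bar beside each group are its mean and SD (n = 3). The groups overlap in every panel, and library 2 (square) is the lowest of L-Pha high in all 8.

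Fn1 and Sparc are the adhesive glycoproteins of the set. Fn1 (ENSMUSG00000026193, chr1:71585520-71653200) encodes fibronectin, which joins collagen to integrins. It was at 26.2, 32.99 and 38.03 CPM in L-Pha low and at 29.8, 23.2 and 35.6 CPM in L-Pha high. These were the most even values among the members, the highest library being 1.64 times the lowest. The means were 32.4 ± 5.93 and 29.6 ± 6.23 CPM and the log2 fold change was -0.13 (SE 0.274, 95% interval -0.72 to 0.46). Apol7d shares 292 exon bases with Fn1 on the other strand and had 2 counts in all.

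Sparc (ENSMUSG00000018593, chr11:55394500-55420080) encodes osteonectin, a collagen-binding glycoprotein of remodelling tissue that melanoma cells also secrete. It was at 105, 149.7 and 199 CPM in L-Pha low and at 163, 128 and 216 CPM in L-Pha high. Library 3 was the highest of each group. The means were 151 ± 47.2 and 169 ± 44.2 CPM, and the log2 fold change of 0.16 had an SE of 0.276 and a 95% interval of -0.43 to 0.75. For each count of Fn1 there were 5.19 of Sparc, a ratio that stayed between 4.01 and 6.07 in the 6 libraries. Sparc over Col1a1 was less even, from 3.42 in L-Pha low 1 to 18.5 in L-Pha high 2.

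Bgn, the proteoglycan of the set (ENSMUSG00000031375, chrX:73483602-73495933), encodes biglycan, a small leucine-rich proteoglycan that binds collagen fibres and, when released, stimulates Toll-like receptors. It was at 9.06, 5.90 and 9.32 CPM in L-Pha low, from 28, 17 and 25 counts. In L-Pha high it was at 18.6, 9.04 and 18.0 CPM, from 70, 30 and 54 counts. L-Pha high 1 and 3 lay above all L-Pha low libraries, and L-Pha high 2 lay among them. The means were 8.10 ± 1.90 and 15.2 ± 5.37 CPM, and the fitted fold was 1.88 with a 95% interval of 1.07 to 3.30. The log2 fold change of 0.91 (SE 0.379) had an unadjusted p of 0.0312 in edgeR and an adjusted p of 1.00, so it did not pass the test. The unadjusted p was no longer under 0.05 when L-Pha low 2, L-Pha high 1 or L-Pha high 3 was left out, where the log2 fold change was 0.72, 0.73 and 0.78.

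Across the 8 genes, then, edgeR called 0 members higher and 0 lower in L-Pha high at an adjusted p under 0.05, and the adjusted p was 1.00 for each of the 8. Of all 11183 genes tested, this fit with group as the only term called 1 (0.00894%). It was the T cell transcription factor Tcf7, which was lower and is named here after its value was seen. At an unadjusted p under 0.05, 1 of the 8 members was higher (Bgn) and 0 were lower, beside 3.78% of all genes tested in either direction, 1.82% higher and 1.97% lower. DESeq2 and limma-voom also called 0 of the 8, where they called 0.268% and 0% of all genes. No member had groups that did not overlap, against 8.41% of all genes tested (4.23% higher and 4.18% lower in L-Pha high). The point estimate was above 0 for 6 members and below 0 for Col3a1 and Fn1, with a median of 0.13 on the log2 scale, beside -0.01 for all genes. The narrowest 95% intervals were those of Fn1 and Sparc. Those of the 5 collagens reached 0.81 or more on the upper side. Their lower limits ran from -0.56 for Col4a1 to -1.33 for Col4a2. Changes between -0.56 and 0.81, in either direction, are therefore not excluded by any of these 5 intervals.

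**Figure D2:**
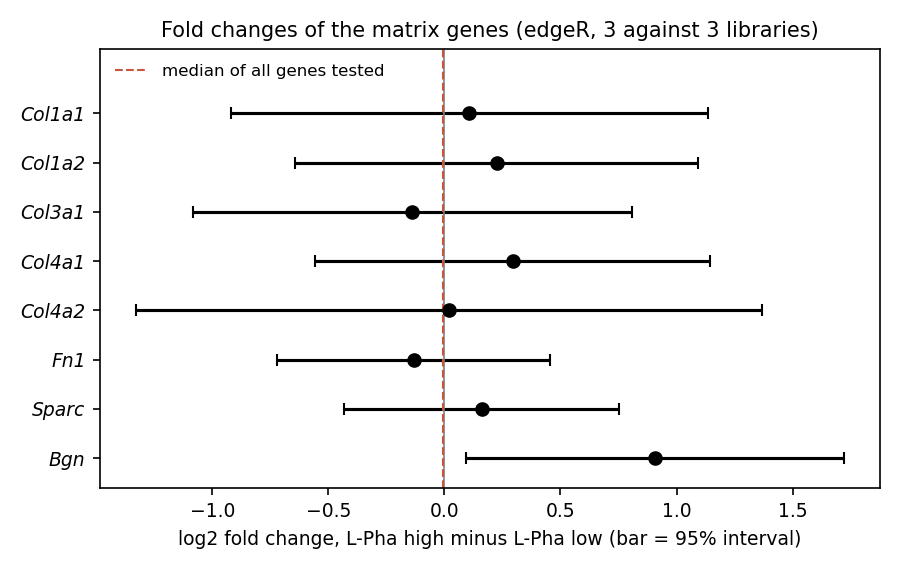
Log2 fold change of each matrix gene, L-Pha high minus L-Pha low, from the edgeR fit of 3 against 3 libraries, with bars for the 95% interval. The dashed line is the median of all genes tested (-0.01), and every interval but that of Bgn (0.09 to 1.72) includes 0.

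Levels of the 8 genes varied from library to library within each group. L-Pha high 2 was the lowest library of its group for 8 of 8 members, where it was the lowest for 32.0% of all genes tested. L-Pha low 2 was the lowest of its group for 5 of 8 members, against 30.2% of all genes, and L-Pha low 3 was the highest for 6 of 8, against 37.0%. Over all 6 libraries, L-Pha high 1 was the highest for Col1a1, Col1a2, Col3a1 and Bgn. The highest library stood at 4.96 times the lowest for Col1a1, 4.32 times for Col3a1, 3.16 for Bgn, 2.82 for Col1a2 and 2.65 for Col4a1. The same ratio was 9.99 for Col4a2, with its 3 counts in L-Pha low 1, 2.06 for Sparc and 1.64 for Fn1. Over 11147 tested genes with a count in every library its median was 2.11, with quartiles of 1.67 and 2.89. Low counts widen this ratio, so Sparc and Fn1, with the most counts, are the members for which it says most about the libraries.

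Left out of the fit, L-Pha high 2 moved the log2 fold change of Col1a1 and Col1a2 to 0.53 each and of Col3a1 to 0.24. It moved that of Col4a1 to 0.61, of Sparc to 0.31 and of Fn1 to 0.0022. This library was picked as the lowest of its group for 8 of 8 members, so a rise without it follows from that choice. Without L-Pha high 1 the values were -0.29 for Col1a1, -0.17 for Col1a2 and -0.72 for Col3a1. For Col4a1, Sparc and Fn1 they were 0.09, 0.19 and -0.14. No member was called with any single library left out.

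Markers of other cells moved from library to library as well. Fibroblast markers (15 genes, 2 tested, Twist2 and Tcf21 at 0 counts throughout) summed to 27.8, 26.4 and 47.4 CPM in L-Pha low and 32.2, 19.6 and 41.3 CPM in L-Pha high, led by Pdpn, Clec3b and Pi16. The 2 tested fibroblast genes had log2 fold changes of -0.25 and 0.45, so they moved in opposite directions. A count of 0 allows up to 3 counts, or 0.799 to 1.12 CPM in these libraries. Pericyte and smooth muscle markers (11 genes, 3 tested, Cnn1 at 0) summed to 90.3, 55.9 and 89.5 CPM and to 74.8, 23.8 and 140.6 CPM, most of it Mcam, an adhesion molecule that melanoma cells share. Endothelial markers (16 genes, 6 tested, none at 0) summed to 70.5, 71.9 and 133.9 CPM and to 93.0, 80.4 and 126.9 CPM, led by Ramp2, Egfl7 and Flt1. L-Pha high 2 was the lowest of its group in these 3 lists, as it was for the 8 matrix genes and for the macrophage, neutrophil and adipocyte lists below. The part of any of these cells in the matrix gene levels was not tested.

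Melanoma markers stood at 9907, 10519 and 15837 CPM in L-Pha low. A rise from library 1 to 3 was also seen there in Sparc, Fn1 and the endothelial, macrophage and basement membrane lists, so it was not particular to any of them. In L-Pha high the melanoma markers followed another order than these genes, at 11005, 13726 and 16469 CPM, where library 1 was the lowest. Dct, Pmel and Mlana led the list. The T cell markers were lowest in the libraries numbered 3, at 798, 888 and 295 CPM against 652, 766 and 414 CPM, led by Cd8a, Cd3d and Cd8b1. Macrophage markers (13 genes, 10 tested, none at 0) summed to 190, 218 and 281 CPM against 336, 266 and 314 CPM. C1qa, a complement subunit, and Cx3cr1, a chemokine receptor, had groups that did not overlap, both higher in L-Pha high, and neither passed the adjusted test. They were 2 of the 10 tested genes of the list, beside 4.23% of all genes tested in that direction. Which cells these transcripts came from was not tested. Lyz2 was the other leading gene of that list. The other 4 lists were near the limit of detection or rested on a single gene. Neutrophil markers (S100a9, S100a8 and Cxcr2 leading, Ngp at 0) summed to 1.81 to 36.6 CPM, keratinocyte markers (Sbsn, Krt10 and Trp63 leading, Krt14, Krt1, Krt15, Lor and Dsg3 at 0) to 2.67 to 7.44 CPM and skeletal muscle markers (Acta1, Mylpf and Ckm leading, Mb at 0) to 1.74 to 6.33 CPM. The adipocyte list (Fabp4, Cfd and Lep leading) reached 6.95 to 113 CPM through Fabp4, with Plin1 and Cidec at 0.

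**Figure D3:**
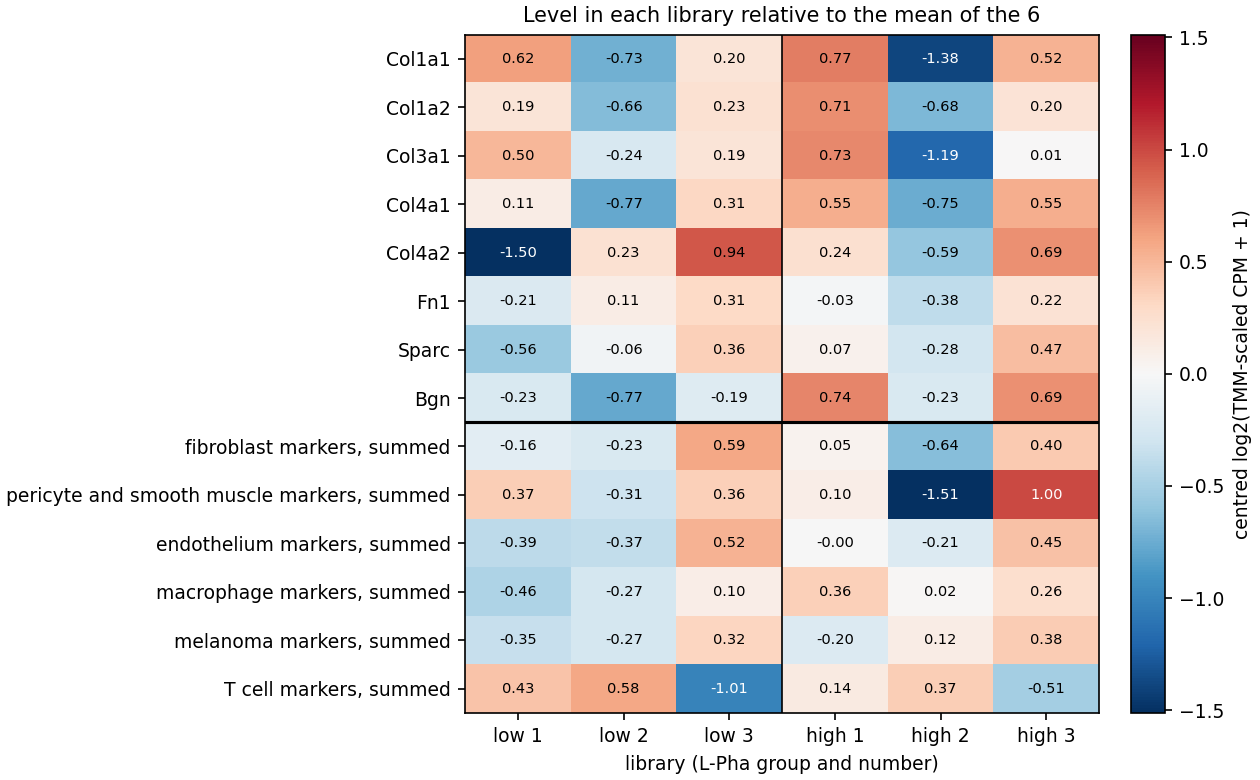
Each cell gives log2(CPM + 1) of a matrix gene, or of the summed CPM of a marker list, in 1 library minus its mean over the 6 libraries, so that red is above and blue below that mean. L-Pha high 2 is below the mean for all 8 matrix genes and for the fibroblast (-0.64), pericyte (-1.51) and endothelial (-0.21) lists, near it for macrophage markers (0.02) and above it for melanoma (0.12) and T cell (0.37) markers. T cell markers are lowest in L-Pha low 3 (-1.01).

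Each member was also divided by the summed CPM of a marker list, and the highest ratio of the 6 libraries was set over the lowest. This value depends on the list's own spread as well as on how closely list and member move together. Highest over lowest, the lists alone stood at 5.91 for pericyte, 2.42 for fibroblast, 1.90 for endothelial, 1.77 for macrophage and 1.66 for melanoma markers. With Sparc, the highest over the lowest ratio was 2.06 undivided and 1.40 per endothelial marker, 1.47 per macrophage marker, 1.59 per melanoma marker and 1.73 per fibroblast marker, but 4.63 per pericyte marker. For Fn1 it was 1.64 undivided and stayed between 1.56 and 1.86 when divided by the fibroblast, endothelial, macrophage or melanoma list, and was 3.84 per pericyte marker. For Col1a1 it was 4.96 undivided, 3.12 per fibroblast marker and 2.25 per pericyte marker, but 5.06 per endothelial, 6.18 per melanoma and 6.21 per macrophage marker. Col3a1 went from 4.32 to 2.62 per fibroblast, 3.196 per pericyte, 4.18 per endothelial, 5.13 per macrophage and 5.38 per melanoma marker. Col4a1 went from 2.65 to 2.17, 2.39, 2.25, 2.66 and 3.24 in the same order. Col1a2 went from 2.82 to 2.27, 3.02, 2.44, 2.72 and 3.52 in that order. Bgn went from 3.16 to 2.94, 3.78, 2.88, 2.11 and 3.02, and Col4a2 from 9.99 to 6.04, 10.6, 5.62, 6.76 and 6.25. Col1a1 and Col3a1 thus varied less beside fibroblast or pericyte markers, and more beside melanoma markers, than they did alone. Of these 5 lists Col1a1 varied least beside pericyte markers and Bgn least beside macrophage markers. Which cells the members came from was not tested. Divided by the T cell list, the 8 ratios ran from 4.26 to 27.0. These are descriptions over 6 libraries, and lists with few counts add counting error of their own.

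Per 100 CPM of fibroblast markers, Bgn stood at 32.6, 22.4 and 19.7 CPM in L-Pha low and at 57.9, 46.2 and 43.5 CPM in L-Pha high. On this scale its groups did not overlap, where 2.99% of all genes tested were separated in that direction. Per 100 CPM of pericyte markers it stood at 10.04, 10.6 and 10.4 CPM and at 24.9, 37.97 and 12.8 CPM, again without overlap, beside 0.358% of all genes. Bgn was singled out here after its values were seen, and its groups overlapped when it was divided by the melanoma, endothelial, macrophage or T cell list, where 1.58%, 1.19%, 0.349% and 0.966% of all genes were separated upward. Fn1 per 100 CPM of macrophage markers was lower in L-Pha high without overlap, at 8.87, 8.72 and 11.3 CPM against 13.8, 15.1 and 13.5 CPM. So were 16.7% of all genes tested on that scale. The macrophage list, the divisor, had means of 230 CPM in L-Pha low and 306 CPM in L-Pha high. Its groups overlapped, and its difference was not tested. Under none of the 6 divisions was a member other than Bgn separated upward.

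The rest of the matrix was followed through 9 lists with 192 genes, of which 179 had a count and 87 were tested. None of the 87 passed the adjusted test in either direction in the edgeR fit with group as the only term. With a block on library number, given in the closing section, 1 of them passed. Without that block, 2 of the 87 (2.30%) had an unadjusted p under 0.05, both higher in L-Pha high, beside 3.78% of all genes. The log2 fold change was above 0 for 45 and below 0 for 42, with a median of 0.03. Groups did not overlap for 4 higher and 2 lower genes of the 87, beside 8.41% of all genes tested (4.23% higher and 4.18% lower).

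Other fibrillar and fibril-associated collagens were sparse: 4 of 11 were tested, all 4 with a point estimate below 0 (median -0.45). Col16a1 stood at 11.9 ± 1.68 CPM in L-Pha low and 9.41 ± 4.04 in L-Pha high (SD, n = 3), Col5a3 at 4.83 ± 1.55 and 3.25 ± 0.796 CPM, and Col14a1 at 3.55 ± 1.73 and 2.32 ± 0.788 CPM. Col24a1 had 0 counts. Of 19 network and other collagens, 2 were tested, Col6a3 (log2 fold change -0.23) of the beaded filaments and Col4a4 (0.21) of a more restricted collagen IV. The chains Col4a6, Col6a5, Col6a6 and Col8a2 had 0 counts.

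The machinery that folds and cross-links collagen had the most tested genes of the 9 lists, 18 of 27, 8 above and 10 below 0 and a median of -0.04. P4hb, which also serves as a general disulphide isomerase in all cells, was at 276 ± 35.9 and 288 ± 43.1 CPM. Serpinh1 (HSP47), the collagen-specific chaperone, was at 245, 152 and 161 CPM in L-Pha low and at 217, 108 and 211 CPM in L-Pha high. Library 2 was its lowest in each group, as it was for Col1a1, Col1a2, Col3a1 and Col4a1. P3h3, a prolyl hydroxylase, had a log2 fold change of -0.49 (SE 0.316), and Fkbp10, a proline isomerase, had -0.42 (SE 0.368) with groups that did not overlap.

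Among laminins and other basement membrane genes 8 of 15 were tested, 5 above and 3 below 0, with a median of 0.13. The laminin chain Lamb3 had the highest value at 0.91 (SE 0.511, unadjusted p = 0.0967), Lamc1 was at -0.45, Lama4 at -0.13 and the heparan sulphate proteoglycan Agrn at -0.19. Of 36 matrix glycoproteins 14 were tested, 9 above and 5 below 0, with a median of 0.21. Sparcl1, a relative of Sparc, was at 75.4 ± 33.4 and 74.8 ± 26.6 CPM, Ccn1 at 72.3 ± 18.4 and 62.1 ± 39.0 CPM, and the elastic fibre gene Fbln5 at 33.6 ± 2.95 and 24.7 ± 10.7 CPM.

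Spp1, which encodes osteopontin, a secreted ligand of integrins and CD44, had the smallest p of the matrix lists. It was at 22.7, 13.9 and 17.5 CPM in L-Pha low and at 58.6, 27.7 and 35.3 CPM in L-Pha high. Every L-Pha high library lay above every L-Pha low library. Its log2 fold change was 1.17 (SE 0.326) with an unadjusted p of 0.0030 and an adjusted p of 0.632 in edgeR, so it was not called in the fit with group as the only term. The summed macrophage markers stood at 190 to 281 CPM in L-Pha low and 266 to 336 CPM in L-Pha high. The summed T cell markers stood at 295 to 888 CPM and 414 to 766 CPM. Which cells the Spp1 RNA came from, T cells included, was not tested.

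The 2 tested proteoglycans besides Bgn, of 12 in the list, were Srgn, the intracellular proteoglycan of blood cell granules, at 50.7 ± 26.2 and 53.1 ± 21.6 CPM, and Dcn, decorin, the closest relative of Bgn, at 6.26 ± 0.725 and 4.08 ± 2.25 CPM. Dcn had a log2 fold change of -0.61 (SE 0.500) where that of Bgn was 0.91, and neither passed the test. Whether the 2 changes differed from each other was not tested.

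Matrix receptors had 15 of 27 genes tested, 10 above and 5 below 0, with a median of 0.13. Cd44, the hyaluronan receptor, was at 118 ± 20.6 and 116 ± 21.7 CPM, and the integrin chain Itgb1 at 97.5 ± 21.5 and 108 ± 11.3 CPM. Itgb3 is an integrin chain of platelets and of tumour and endothelial cells that binds osteopontin and fibronectin. In L-Pha low it was at 2.27, 3.82 and 2.61 CPM, from only 7, 11 and 7 counts. In L-Pha high it was at 4.53, 14.2 and 9.99 CPM, from 17, 47 and 30 counts. Its groups did not overlap and its log2 fold change was 1.70 (SE 0.507, unadjusted p = 0.0047, adjusted p = 0.689 in edgeR). Lair1, an inhibitory collagen receptor of leukocytes, was at 2.68 ± 0.370 and 4.54 ± 0.457 CPM without overlap, with an unadjusted p of 0.135.

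Of 30 genes that degrade matrix or restrain its degradation 13 were tested, 7 above and 6 below 0, with a median of 0.04. The inhibitor Timp2 was at 70.5 ± 15.0 and 78.8 ± 15.9 CPM, the protease Ctsb at 72.8 ± 5.12 and 65.5 ± 13.6 CPM, and the log2 fold change was 1.08 (SE 0.643) for the plasminogen activator Plat and 0.56 (SE 0.465) for the inhibitor Timp3. In the TGF-β axis, the best known inducer of collagen genes, 11 of 15 genes were tested, 4 above and 7 below 0, with a median of -0.25. Tgfbr2 stood at 38.4 ± 15.8 and 23.3 ± 9.36 CPM (log2 fold change -0.72, unadjusted p = 0.0630) and Smad4 at 26.1 ± 6.43 and 29.4 ± 8.22 CPM. Smad3 was at 7.82 ± 2.47 and 4.16 ± 0.596 CPM with groups that did not overlap (log2 fold change -0.90, unadjusted p = 0.0557). Tgfbr2 and Smad3 are also expressed by T cells.

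**Figure D4:**
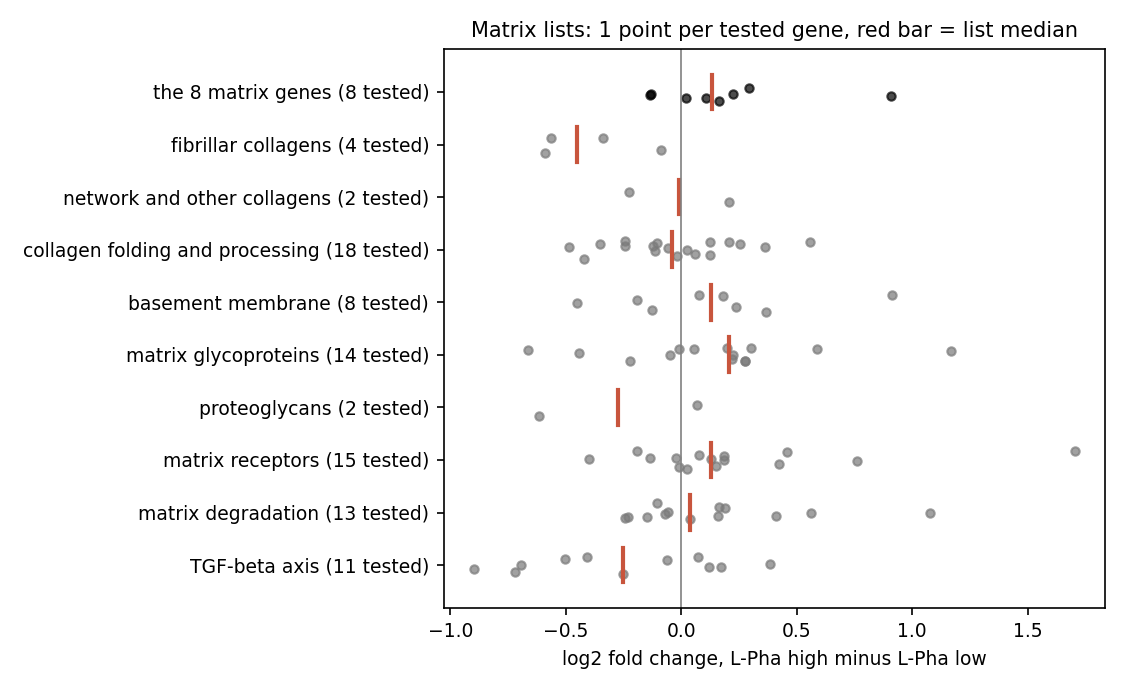
Log2 fold change, L-Pha high minus L-Pha low, of every tested gene of the 8 matrix genes (black) and of the 9 other matrix lists (grey), with a red bar at each median. List medians lie between -0.45 (4 fibrillar collagens) and 0.21 (14 glycoproteins). No point passed the adjusted test in this fit, which has group as the only term.

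The genes most like the matrix genes over the 6 libraries were sought among 4307 protein-coding genes with a mean of at least 20 CPM. Likeness was the root mean square distance, in centred log2(CPM + 1), from the mean of Sparc, Fn1 and Col1a1, the 3 members at that level. The nearest were Washc3 (0.105), Eloc (0.112), Nlk (0.120), Tiparp (0.129) and Pcnp (0.136). Each of them was lowest in L-Pha high 2, at 20.2 CPM for Washc3 and 59.96 CPM for Eloc. None is a matrix gene, and with 6 libraries and 4307 candidates close matches of this kind are a description only.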

How the data were processed

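The authors' deposited table of whole-number read counts per gene was made with featureCounts 1.5.0 (patch p3) on Ensembl 78 gene models of GRCm38, per the file headers, with sense-strand counting, every alignment of a multi-mapping read counted and overlapping genes each given the read. The libraries were QuantSeq 3′ libraries, per the labels. Tools named without a role in the submitters' processing notes were HISAT2 2.1.0, cutadapt 1.7, Subread 1.5.0, limma, bcl2fastq 2.17.1.14 and FastQC 0.11.5. Those notes give hg19, a human build, but the table's header and identifiers are of mouse GRCm38. A deposited table of log2 values (14293 rows), whose making is not given in the sources used here, served as 1 alternative.

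Symbols came from GENCODE M21 (97.5% of 43629 genes). Of 21866 genes with a count, 11183 passed edgeR's filterByExpr. TMM-scaled counts went into edgeR 4.0.16 in R 4.3.3 (quasi-likelihood F test, robust, group only, two-sided), with Benjamini-Hochberg adjustment over all genes tested and a threshold of 0.05. "Called" means past that threshold. SE values derive from the F statistic. Alternatives were DESeq2 1.42.0, limma-voom (limma 3.58.1) and those in the closing section. Library totals of 2610729 to 3521117 counts limit the precision of low genes, and reads without molecular identifiers are not independent molecules.

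The members and the 20 gene lists (315 symbols, all matched) were chosen with earlier results of these data known. Named genes were the 8 members, per matrix list the 2 tested genes with the highest mean CPM and the 2 with the smallest p, per marker list the 3 with the highest mean CPM, and the 5 genes most alike over the libraries. On simulated counts for this comparison (10818 genes), the edgeR step recovered 19% of 100 genes changed 2-fold and 85% of 100 changed 4-fold, with 14 false calls, and made 0 calls with no gene changed.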

Additional observations from a re-analysis of the deposited data

How the results depend on the processing

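Under 15 alternatives, 6 of which left out 1 library, no member was called in either direction. Over all genes tested, where the main test called 0 higher and 1 lower, the counts were 20 and 27 with no filter on low counts, 8 and 22 with DESeq2, 5 and 0 with limma on the deposited log2 table, 0 lower with limma-voom and 0 lower with library totals alone. They ran from 0 to 1 higher and from 0 to 7 lower when a library was left out, the highest of both without L-Pha low 3. Library totals alone moved the median log2 fold change of all genes to 0.10. Of the other matrix lists, 1 gene was called higher with the log2 table. It was Fbn2, with 0 counts in each L-Pha low library, named after its value was seen.

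A replicate block on the libraries' numbers called 20 genes higher and 23 lower, 0 of them members, and 1 higher gene of the matrix lists, Spp1 (log2 fold change 1.14, adjusted p = 0.0411). What the numbers mark is not stated. Same-numbered libraries correlated at 0.37, 0.08 and 0.47 in their deviations from the group means. Each L-Pha high library correlated better with the L-Pha low library of its own number than with the others. From the other side, L-Pha low 2 correlated better with L-Pha high 1 (0.13) than with L-Pha high 2 (0.08). Whether same-numbered libraries are pairs was not tested. Under the block Sparcl1 stood at 0.0208.

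Signs of uncalled log2 fold changes turned in some settings. Library totals alone gave 0.0571 for Serpinh1, 0.0842 for Sparcl1 and 0.0767 for Cd44. Limma-voom gave -0.0749 for Col1a1 and 0.0240 for Sparcl1, and the log2 table -0.0445 for Col1a1, 0.0557 for Sparcl1 and 0.0029 for Cd44. Leaving out 1 library gave ranges of -0.29 to 0.53 for Col1a1, -0.17 to 0.53 for Col1a2, -0.72 to 0.24 for Col3a1, -0.49 to 0.74 for Col4a2, -0.29 to 0.0022 for Fn1 and -0.0556 to 0.41 for Sparc. In the same way Col6a3 ran from -0.73 to 0.0915, Col4a4 from -0.16 to 0.65, P4hb from -0.0793 to 0.14, Serpinh1 from -0.22 to 0.19, Agrn from -0.47 to 0.12, Lama4 from -0.40 to 0.33, Sparcl1 from -0.34 to 0.40, Ccn1 from -0.68 to 0.19, Srgn from -0.27 to 0.48, Cd44 from -0.19 to 0.13, Timp2 from -0.0039 to 0.31 and Smad4 from -0.0546 to 0.35. Bgn kept its sign, from 0.72 to 1.16 over all 15 alternatives, with adjusted p from 0.397 to 1.00, and Col4a1 from 0.01 to 0.61. The cause was not tested.

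Without Gm42418 in the library total, the share of the 8 genes was 0.0259%, 0.0271% and 0.0388% for libraries 1 to 3 of L-Pha low. The same shares were 0.0399%, 0.0220% and 0.0426% for L-Pha high. As TMM-scaled CPM it was 0.0234% in L-Pha low 2, 0.0323% in L-Pha high 1 and 0.0361% in L-Pha high 3.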
